A study of Homo sapiens with 8 samples.

Results

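The Ena/VASP family consists of 3 human genes, ENAH (also called MENA), EVL and VASP, and its members were read here in an eCLIP experiment on the splicing regulator RBFOX2. The members of the set are the deposited peaks whose midpoint lies inside the RefSeq span of one of the 3 genes, on the strand of that gene. There were 807 such peaks among the 1118316 peaks of the 4 lists, 467 in ENAH, 304 in EVL and 36 in VASP. This rule places peaks by gene positions and uses none of the values tested below, but the 3 genes were proposed with earlier results of these data known. All samples were HEK293T cells, an established human embryonic kidney cell line, with no genetic change or drug named in the labels. They form 4 IP libraries, made with an antibody against RBFOX2, and 4 input libraries, each holding 2% of the same lysate, and IP and input with the same number are a pair. The cells were crosslinked with ultraviolet light of 254 nm at 400 mJ per square centimetre. The labels do not say whether the 4 numbers stand for separate cultures, so the spread between them may be technical. The lists give enrichment and no RNA levels, so the identity of the cells was not checked against marker genes, and the read depth behind each value is unknown.

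Ena/VASP proteins sit at the tips of growing actin filaments, at focal adhesions and at cell contacts, where they keep filament ends open for elongation. They share an N-terminal EVH1 domain that docks on proline-rich ligands such as zyxin, a central proline-rich stretch that binds profilin, and a C-terminal EVH2 domain that binds actin and joins the subunits. RBFOX2 binds RNA at the motif GCAUG, mostly in introns, and sites downstream of an alternative exon usually favour its inclusion. ENAH is a textbook target, since RBFOX2 promotes an epithelial cassette exon of its transcript. The question addressed here is where RBFOX2 crosslinked on the 3 transcripts and how well the 4 replicates agreed.

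For each peak the lists give the log2 fold of IP over its paired input and a −log10 p-value. A peak in the lists is called "called" whatever its values, and "enriched" when its log2 fold is at least 3 and its −log10 p at least 3. Whole lists held between 267691 and 288305 called peaks.

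ENAH lies on chromosome 1 from 225486829 to 225653878 on the minus strand and spans 167050 nt (positions of genes and peaks are on GRCh38). Replicates 1 to 4 placed 125, 119, 116 and 107 called peaks in it (mean 117 ± 7.5, SD, n = 4). EVL, on chromosome 14 from 99971422 to 100144236 on the plus strand, is of similar size at 172815 nt and had 71, 80, 72 and 81 (mean 76 ± 5.23, SD, n = 4). VASP, on chromosome 19 from 45507479 to 45526983 on the plus strand, spans only 19505 nt and had 10, 6, 7 and 13 (mean 9 ± 3.16, SD, n = 4). The counts of ENAH and EVL did not overlap in any replicate. Per kb of span, ENAH had 0.699 ± 0.0449 called peaks, EVL 0.440 ± 0.0303 and VASP 0.461 ± 0.162 (SD, n = 4 for each). On this scale EVL and VASP did not differ beyond the spread of VASP, whose 4 values ranged from 0.308 to 0.666 and so reached into the range of ENAH. The median over the 9301 protein-coding genes with a called peak in every list was 0.445 per kb, and 29.6% of these genes had more called peaks per kb than ENAH. The strand of the peaks followed the genes closely. The opposite strand of the 3 spans held no called peak in ENAH or VASP and 1 in EVL, at the end of the span where the gene DEGS2 overlaps it on the minus strand.

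Among the 3 genes, only ENAH had enriched peaks. Replicates 1 to 4 gave 1, 1, 1 and 3 of them (mean 1.5 ± 1, SD, n = 4). That is 0.8%, 0.840%, 0.862% and 2.80% of the called peaks of ENAH, against 0.861%, 0.848%, 0.789% and 0.775% of all called peaks in the same 4 lists. At this fold limit the share was near the background in the first 3 replicates and above it in replicate 4. Against all other peaks lying in a gene on its strand, ENAH was 0.524 ± 1.02 percentage points higher (SD, n = 4), with a positive sign in 3 of the 4 (exact permutation by sign flips, two-sided p = 0.375, 0.375 after Benjamini-Hochberg adjustment over the 3 genes). Without replicate 4 this difference was 0.0138 percentage points and the mean count of enriched peaks 1. With the −log10 p limit of 3 alone ENAH had 3, 2, 2 and 5 peaks, or 2.4%, 1.68%, 1.72% and 4.67% of its called peaks, against 1.11%, 1.13%, 1.05% and 1.02% of other genic peaks, and it was higher in all 4 lists. With a fold limit of 1 in place of 3 the difference was 1.55 percentage points (exact permutation by sign flips, two-sided p = 0.13, not adjusted), beside a background of 1.11% of all peaks. EVL and VASP had 0 enriched peaks in each of the 4 lists, against 0.803% ± 0.0463 of the other genic peaks (SD, n = 4). A share of 0 lies below any background, so no test is given for these genes. The smallest p that 4 replicates allow is 0.13, so none of these tests could pass 0.05. The share of 0 in EVL and VASP was thus not shown to differ from the background. ENAH was one of the 899 protein-coding genes with an enriched peak in any list (9.67% of 9301). Only 2.16% of the 9301 genes had more called peaks in total than ENAH, and the share of genes takes no account of that.

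**Figure D1:**
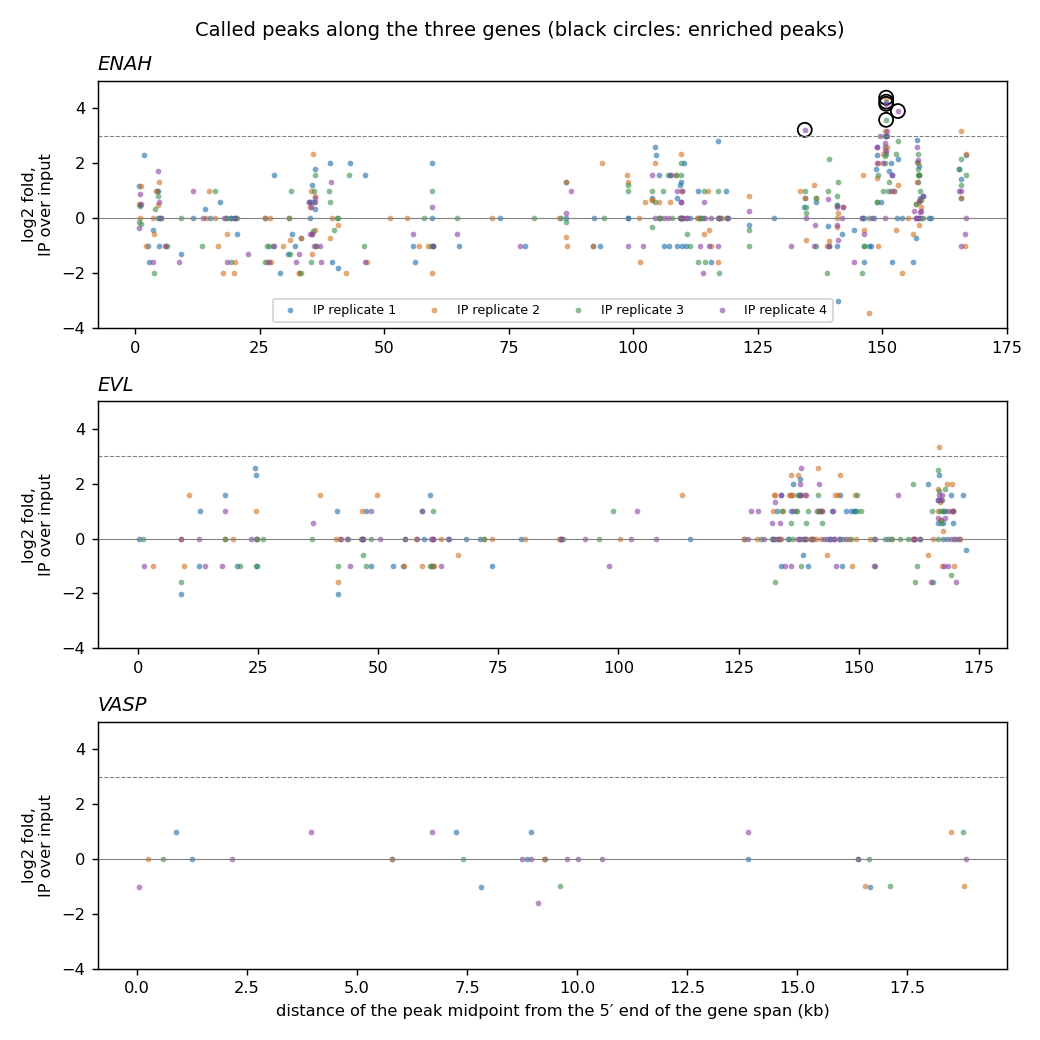
Called peaks of ENAH, EVL and VASP, each point a peak of 1 IP list, with the distance of its midpoint from the 5′ end of the gene span in kb on the x axis and the log2 fold of IP over input on the y axis. Black circles mark enriched peaks, the dashed line a log2 fold of 3. The enriched peaks lie between 134 and 153 kb into ENAH, and those of 4 different replicates coincide at 150.8 kb.

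The position that was enriched in all 4 replicates lay near the 3′ end of ENAH. Enriched peaks merged into 3 regions there, of which 1 was enriched in all 4 replicates and 2 in replicate 4 only. Over the whole series, 16.4% of the merged enriched regions had all 4 replicates and 52.8% had 1. A region enriched in all 4 was found in 2.4% of the 9301 protein-coding genes. This share takes no account of the number of called peaks per gene, which was 467 in ENAH against a median of 54 in these genes. How rare such a region is among genes with as many peaks was not tested.

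The ENAH region enriched in all replicates ran from 225503009 to 225503153 on chromosome 1, minus strand, 145 nt long and 150.8 kb from the 5′ end of the span. Replicates 1 to 4 measured log2 folds of 4.25, 4.39, 3.59 and 4.17 at this site (mean 4.10 ± 0.35, SD, n = 4), a 17.1-fold enrichment over input. The 4 values lay within 1 log2 unit, with replicate 3 the lowest, and all were above the next ENAH region's mean. Its −log10 p was 4.40, 5.25, 5.25 and 4.12, so it passed the limit of 3 by a small margin compared with the cap of 400 in these lists. The position was enriched in each of the 4 lists, but at a −log10 p of at least 5 it stayed in replicates 2 and 3 only.

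Other positions close to this region also had called peaks in all 4 lists. When all called peaks of the 4 lists were merged by overlap, 3 regions with a peak in every replicate followed each other from 225502956 to 225503445, within 490 nt. The first, from 225502956 to 225503217, contains the enriched region above and has the same 4 values. The second, from 225503218 to 225503280, had log2 folds of 3.0, 3.17, 2.0 and −0.00050. Replicate 4 showed no enrichment there, and the mean of 2.04 ± 1.46 (SD, n = 4) did not pass the test (limma adjusted p = 0.0706). The third, from 225503333 to 225503445, had 2.58, 2.49, 2.26 and 2.74 (mean 2.52 ± 0.20, SD, n = 4), with −log10 p-values of 3.74, 3.90, 3.08 and 3.31. Its SD was the smallest of the ENAH regions that passed the test described next. It stayed under the fold limit of 3 and over the limit on p in all 4 replicates.

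**Figure D2:**
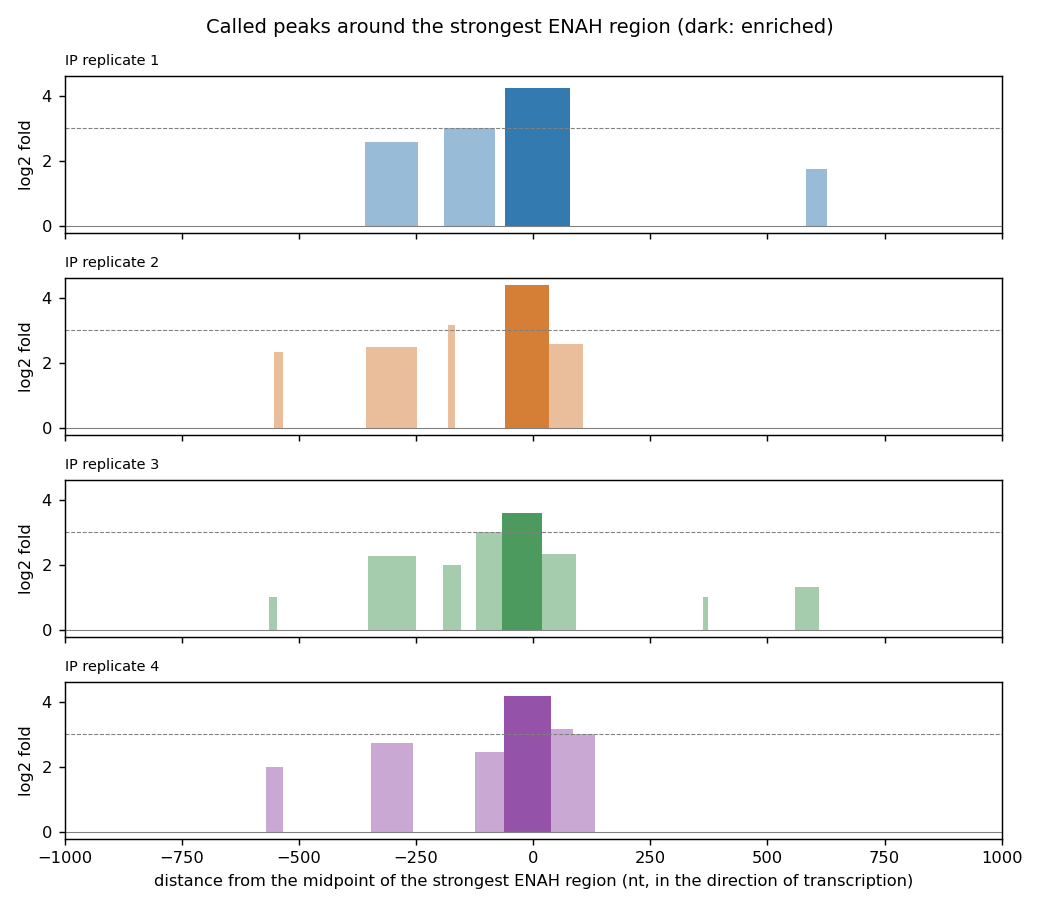
Called peaks within 1000 nt of the midpoint of the strongest ENAH region, 1 panel per IP replicate, with distance in the direction of transcription in nt on the x axis and log2 fold on the y axis. Bars span each peak, dark bars are enriched peaks and the dashed line is a log2 fold of 3. The dark bar stands at the centre in all 4 replicates, and the peak upstream of it, with log2 folds of 2.26 to 2.74, is also present in all 4.

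To ask which positions were enriched beyond the spread between replicates, each region with a called peak in all 4 lists was given 1 log2 fold per list, that of whichever peak had the highest −log10 p, and the mean was tested against 0 with limma over all 49493 such regions. Where a list had several peaks in a region, this choice of peak leans towards higher folds, in ENAH and elsewhere. With the mean of the peaks instead, the highest ENAH mean was 3.32 in place of 4.10. Of the 49493 regions, ENAH held 35, EVL 12 and VASP none. In ENAH 8 regions were higher in IP (22.9%) and 0 were lower, against 21.1% higher and 1.81% lower among all regions tested. At an unadjusted p under 0.05 limma gave 14 higher and 0 lower in ENAH, against 32.8% higher and 4.47% lower among all regions. The median of the mean log2 fold was 0.65 in ENAH and 0.50 over all regions. The share of called positions was thus close to that of the whole table, and the count depended on having all replicates. It was 0 without replicate 1 (smallest adjusted p = 0.0507), 2 without replicate 2, 3 without replicate 3 and 0 without replicate 4 (smallest adjusted p = 0.0506). The strongest region had a limma adjusted p of 0.00408 with all 4 replicates, and it lost its call in the fits without replicate 1 and without replicate 4. Its mean log2 fold stayed at 4.05 and 4.08 in these fits, against 4.10 with all replicates. In both, the region starting at 225503333 had the same adjusted p as the strongest one. The share of all regions called in fits that left out a replicate is not given here. A loss of calls over the whole table was thus not told apart from one in ENAH.

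Most of the 8 higher ENAH regions lay near the 3′ end, as did many of the 35 tested regions. Of the 8 higher regions, 6 lay within 10 kb of the strongest one, between 225496483 and 225505067. This stretch of 8585 nt is 5.14% of the span and held 17.6% of the called peaks. It contains 8 tested regions, of which the 6 were higher, while 2 of the other 27 tested regions of ENAH were. The stretch was outlined after its values were seen, with its edges at the outermost of the 6 higher regions. The tested regions starting at 225496114, 225496264, 225507434, 225512662 and 225512866 also lay within 10 kb of the strongest one. They were not higher and fell outside these edges. The counts are a description, and their contrast follows in part from how the stretch was drawn. Besides the regions already given, a region from 225496685 to 225496970 had log2 folds of 2.86, 2.0, 2.06 and 2.58 (mean 2.38 ± 0.41, SD, n = 4; limma adjusted p = 0.00691). Its 4 values stayed close, and 2 of its −log10 p-values passed 3, at 4.96 in replicate 1 and 4.30 in replicate 4.

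A region from 225500679 to 225500808 was less even. Its log2 folds were 2.17, 1.22, 2.81 and 3.91 (mean 2.53 ± 1.13, SD, n = 4; limma adjusted p = 0.0223), highest in replicate 4, the only list in which it was enriched. The call was lost in each of the 4 fits that left out a replicate, with adjusted p-values from 0.0677 to 0.134. The third enriched region of ENAH, from 225519319 to 225519562, also came from replicate 4 alone. There the log2 fold was 3.22 with a −log10 p of 5.33, against 0.74, 0.74 and 1.0 in replicates 1 to 3. The region of merged called peaks around it did not pass the test (mean 1.42 ± 1.20, SD, n = 4; limma adjusted p = 0.111). The remaining higher regions of ENAH had mean log2 folds between 1.43 and 1.94 and limma adjusted p-values between 0.0291 and 0.0439.

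**Figure D3:**
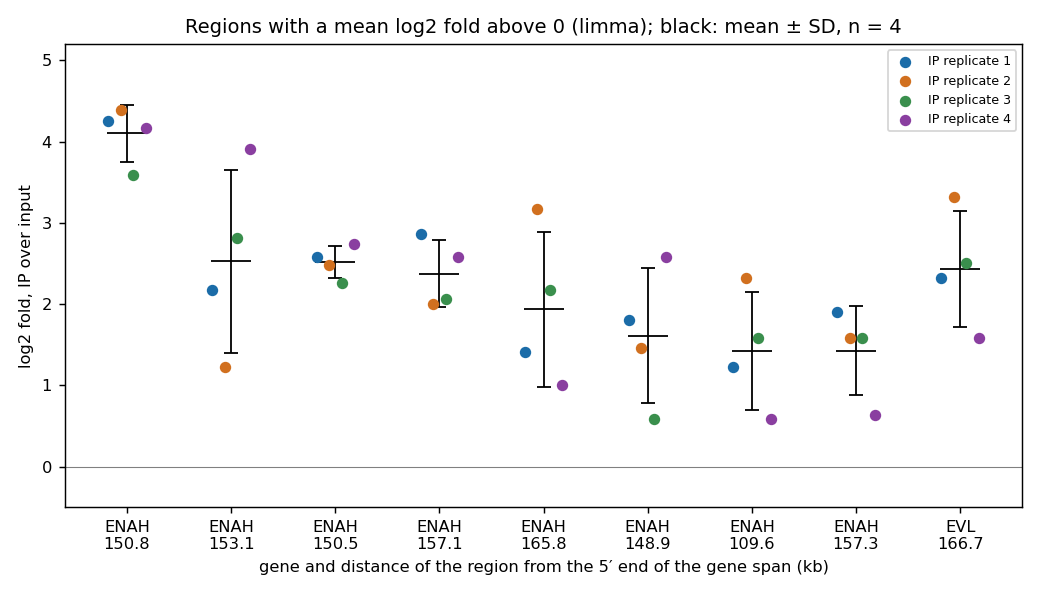
The 9 regions of ENAH and EVL whose mean log2 fold was above 0 (limma adjusted p of at most 0.05), named on the x axis by gene and distance from the 5′ end of the span in kb, with the log2 fold on the y axis. Coloured points are the 4 IP replicates, and black bars the mean ± SD (n = 4). The ENAH region at 150.8 kb has the highest mean, 4.10, and the ENAH region at 150.5 kb the smallest spread, 0.20.

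At the other end of the range no ENAH position was lower in IP. The 3 lowest mean log2 folds were −0.57 ± 1.84, −0.50 ± 0.41 and −0.40 ± 0.79 (SD, n = 4), for the regions starting at 225512662, 225507434 and 225633779, with limma adjusted p-values of 0.612, 0.255 and 0.499. The first of these ranged from −3.0 in replicate 1 to 1.32 in replicate 3.

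The start of ENAH gives a case of peaks called in all 4 lists without enrichment. One called peak per list overlapped the RefSeq window around the annotated start, with log2 folds of 1.17, 0.52, −0.12 and −0.36 (mean 0.30 ± 0.69, SD, n = 4; limma adjusted p = 0.575). Its values fall on both sides of 0. The stretch that all 4 peaks share with the window, chr1:225653074-225653090 on the minus strand of GRCh38.p14, taken from RefSeq, is shown because it is the stretch of ENAH under called peaks for which a sequence was at hand.
ENAH start: tgcacacggcctcggcg
The RefSeq windows of 300 nt around the annotated starts of ENAH, EVL (which has 2) and VASP were searched for GCATG, on both strands. None of the 4 windows held it, while 29.5% of all 35116 such windows did on either strand and 19.6% on the transcribed strand. This says only that these letters are absent from these windows. The sequence of the ENAH regions near the 3′ end was not used here, and neither were exon positions, so their distance from the cassette exon is not given.

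EVL, a member known from blood cells, had 1 region higher in IP. It ran from 100137972 to 100138233 on chromosome 14, 166.7 kb from the 5′ end, and replicates 1 to 4 gave log2 folds of 2.32, 3.32, 2.5 and 1.6 (mean 2.43 ± 0.71, SD, n = 4; limma adjusted p = 0.0111). All 4 replicates were above 0, yet the −log10 p-values were only 1.41, 2.20, 2.83 and 0.836. No EVL peak in any list reached a −log10 p of 3. The call was lost in each of the 4 fits that left out a replicate (adjusted p from 0.0530 to 0.120) and when the mean was tested against a log2 fold of 1 (adjusted p = 0.0652). The share of all regions called in those fits is not given here, so a loss over the whole table was not told apart from one in EVL. The EVL share of called regions, 8.33%, lay below the 21.1% of the whole table, on 12 regions. No EVL region was lower, and at an unadjusted p under 0.05 there were 4 higher and 0 lower of 12, against 32.8% and 4.47% of all regions.

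The next EVL positions did not pass the test. The region 100108835 to 100108949 averaged a log2 fold of 1.37 ± 0.98, and the region 100109246 to 100109380 averaged 1.09 ± 1.42 (SD, n = 4; limma adjusted p = 0.0849 and 0.253). In the latter replicate 3 was at −1.0, against 2.17, 1.59 and 1.6 in the other replicates. Beside the region higher in IP, those starting at 100137844 and 100138604 averaged 0.99 ± 0.79 and 0.84 ± 0.39 (limma adjusted p = 0.13 and 0.0841). The 3 lowest means of EVL were −0.90 ± 1.05, 0.000205 ± 0.82 and 0.32 ± 1.27, for the regions starting at 99980272, 100032678 and 100140654 (limma adjusted p = 0.230, 0.99982 and 0.707). The regions starting at 100108835 and 100109246 lie upstream of MIR342, a microRNA gene inside the EVL span whose hairpin lies at chr14:100109655-100109753 on the plus strand. No called peak of the 4 lists overlapped the hairpin. Within 600 nt of it there were 2, 2, 4 and 4 called peaks, none with a −log10 p above 1.18. The mature products are shown, from RefSeq (GRCh38.p14), because they are the part of this host transcript with a function of its own, and the capitals mark the seed (bases 2 to 8).
hsa-miR-342-5p: aGGGGUGCuaucugugauuga
hsa-miR-342-3p: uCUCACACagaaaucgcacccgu
The seeds differ, and GCAUG does not occur in the hairpin.

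EVL peaks were not spread evenly over the span. RefSeq gives EVL a second annotated start at 100065422, 94 kb into the span. Upstream of it there were 25, 28, 21 and 26 called peaks, or 0.266 ± 0.0313 per kb. From it to the 3′ end there were 46, 52, 51 and 55, or 0.647 ± 0.0475 per kb (SD, n = 4 for both). The densities did not overlap between the 2 parts in any replicate. No such split was made in other genes, so this has no background beside it. The second density was close to the 0.699 per kb of ENAH, but that value is for the whole ENAH span, where peaks were also uneven. Of the 12 tested regions of EVL, 9 lay downstream of the second start. Both start windows of EVL were free of called peaks.

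VASP, the founding member of the family and a kinase substrate in platelets, had no enriched peak at any position. Its highest log2 fold was 1.0 in each of the 4 lists and its highest −log10 p was 0.204. The 36 VASP peaks took just 4 values of the fold, counted from the commonest value of each list. There were 20 at 0, 8 at 1, 7 at −1 and 1 lower still. ENAH took 69 such values and EVL 23. No RNA levels were at hand, so for each of the 3 genes less RNA and less binding cannot be told apart. Merged over the 4 lists the VASP peaks formed 28 regions, of which 21 were seen in 1 list, 6 in 2, 1 in 3 and 0 in all 4.

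How often the same positions were called again was compared next. A called peak of ENAH overlapped a called peak of another list in 54.1% ± 3.37 of cases (SD over 4 lists, each the mean over the other 3). The share was 34.4% ± 3.41 in EVL, 17.7% ± 3.96 in VASP and 36.5% ± 0.694 for other genic peaks (SD, n = 4). ENAH was above the other genic peaks by 17.6 ± 3.89 percentage points in 4 of 4 lists, and VASP below them by 18.8 ± 4.15 in 4 of 4 (exact permutation by sign flips, two-sided p = 0.13, adjusted 0.188 over the 3 genes, for both). EVL did not differ beyond its spread (exact permutation by sign flips, two-sided p = 0.375). After merging, 35 of 226 ENAH regions (15.5%) were seen in all 4 lists, against 12 of 197 in EVL (6.09%) and 7.06% of all 701159 regions.

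Modest folds were also compared, though with 4 replicates these tests could not pass 0.05. Log2 folds above 0.5 made up 39.9% ± 3.91 of ENAH peaks and 40.3% ± 4.96 of EVL peaks, but 21.0% ± 7.05 of VASP peaks and 31.5% ± 1.34 of other genic peaks (SD, n = 4), beside a background of 31.4% of all peaks. ENAH was higher than the other genic peaks by 8.44 ± 4.6 and EVL by 8.79 ± 4.18 percentage points, in 4 of 4 lists each, while VASP was lower by 10.5 ± 5.91 in 4 of 4 (exact permutation by sign flips, two-sided p = 0.13, adjusted 0.13, for each). ENAH and EVL themselves did not separate, with a difference of −0.347 ± 4.99 percentage points (exact permutation by sign flips, two-sided p = 1). Folds below −0.5 made up 28.5% ± 4.51 of ENAH peaks, 18.5% ± 2.19 of EVL peaks and 23.8% ± 0.489 of other genic peaks, beside a background of 23.6%. ENAH had a higher share of these low folds than EVL in 4 of 4 lists (9.98 ± 6.18 percentage points; exact permutation by sign flips, two-sided p = 0.13, adjusted 0.375). Against other genic peaks, this share was higher in ENAH by 4.72 ± 4.87 percentage points, in 3 of 4 lists. In EVL it was lower by 5.26 ± 2.27, in 4 of 4. The commonest fold of each list, near 0, made up 21.8% ± 2.35 of ENAH, 40.5% ± 7.09 of EVL and 41.5% ± 0.930 of other genic peaks. ENAH thus had larger shares on both sides of 0, and its excess above 0.5 does not by itself show a shift towards enrichment.

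Both long genes carried their peaks towards the 3′ end. The last 20% of the span held 37.6%, 32.8%, 35.3% and 41.1% of the ENAH peaks and 46.5%, 45%, 48.6% and 40.7% of the EVL peaks. For the other protein-coding genes the mean was 20.9% ± 0.248 (SD, n = 4), so both genes were above it in 4 of 4 lists, by 15.8 ± 3.6 and 24.3 ± 3.34 percentage points (exact permutation by sign flips, two-sided p = 0.13, adjusted 0.188, for both). In VASP the share swung from 10% to 57.1% on its 6 to 13 peaks and cannot be placed. In equal bins of 20%, the middle one held the fewest peaks in both genes, 28 of 467 in ENAH and 18 of 304 in EVL.

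**Figure D4:**
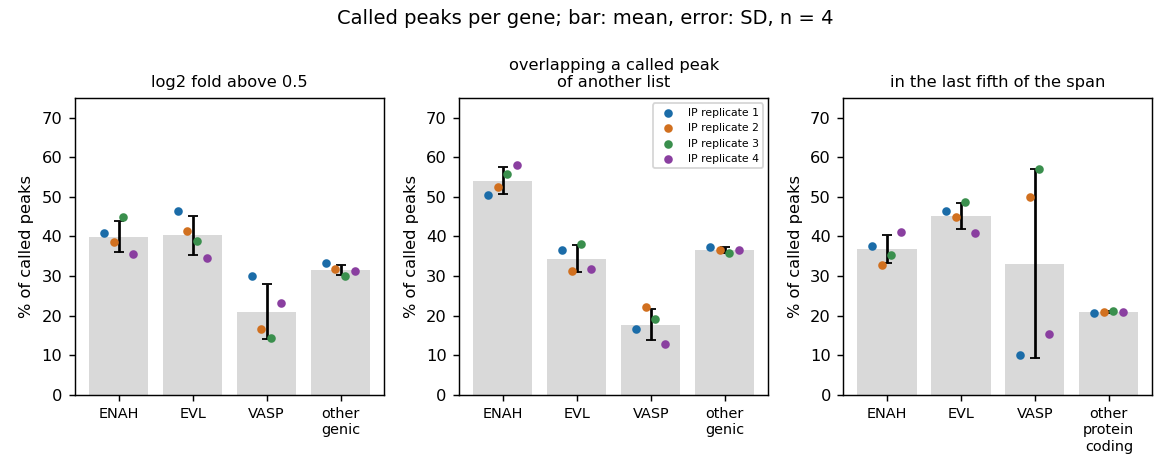
Share of called peaks in percent (y axis) with a log2 fold above 0.5, overlapping a called peak of another list, or lying in the last 20% of the gene span, for ENAH, EVL, VASP and, in the first 2 panels, other genic peaks or, in the third, peaks of other protein-coding genes (x axis). Bars are means, error bars SD and coloured points the 4 IP replicates. ENAH stands above the others in the middle panel at 54.1%, and ENAH and EVL above other genes in the right panel at 36.7% and 45.2%.

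Genes with a like profile were sought by the distance between 8 values per gene, the log2 of 1 plus the called and the enriched peaks in the 4 lists, over the protein-coding genes with a strand in the table. ENAH came closest to SERGEF (distance 1.03), EPB41 (1.20) and ZNF516 (1.22), which had 101 to 142 called and 1 to 4 enriched peaks per list. EVL came closest to LOC124902361 (0.0896), SUCLG2 (0.117) and NCOR1 (0.123), and VASP to POMGNT1 (0.174), DPAGT1 (0.237) and VPS52 (0.320), all 6 with no enriched peak.

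The proteins that Ena/VASP members work with were read from a list of 29 genes, of which 26 had a strand in the table. Enriched peaks were found in 2 of the 26, ACTG1 and DIAPH1, against 9.67% of the 9301 protein-coding genes with a called peak in every list. Both also had a region enriched in all 4 replicates, against 2.4% of those 9301 genes. Per list the 26 genes held 3.25 ± 0.957 enriched peaks, or 0.255% ± 0.0690 of their called peaks (SD, n = 4), against 0.818% of all peaks in the 4 lists together. Of their 162 tested regions, 22 were higher (13.6%) and 2 lower (1.23%) by limma, against 21.1% and 1.81% of all regions. For the 26 genes together the shares of peaks and of tested regions are below the background. The share of genes with a region enriched in all 4 replicates is above it, on 2 genes.

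ACTG1, which encodes cytoplasmic gamma-actin, had 1, 2, 3 and 3 enriched peaks. A region from 81511618 to 81511731 on chromosome 17, minus strand, was enriched in all 4 replicates with log2 folds of 3.27, 3.66, 4.30 and 4.37 (mean 3.90 ± 0.53, SD, n = 4). Actin genes have near-identical copies, and how reads that fit several copies were treated is not given in the sources used here, so this position is uncertain. DIAPH1, a formin that also elongates actin filaments, had 1 enriched peak in each list. They formed a region from 141587955 to 141588122 on chromosome 5, minus strand, with log2 folds of 4.39, 4.32, 3.0 and 4.58 (mean 4.08 ± 0.72, SD, n = 4). Its mean is close to the 4.10 ± 0.35 of ENAH.

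No enriched peak was found in the 10 focal adhesion proteins and EVH1 ligands, which include zyxin (ZYX), vinculin (VCL) and lamellipodin (RAPH1). They had 546 ± 26.4 called peaks per list (SD, n = 4), and none of these fell in APBB1IP or FYB1, adaptors of blood cells. By limma 8 of their 60 tested regions were higher (13.3%, against 21.1% of all regions) and 2 lower (3.33%, against 1.81%), the latter 1 each in VCL and in ROBO1, an axon guidance receptor. ROBO1 alone held 40 of the 60 regions, 4 of them higher, and 340 ± 11.6 of the called peaks (SD, n = 4). The shares of this group thus rest mostly on 1 gene. The 5 kinases and ligases, among them PRKACA and PRKG1, which phosphorylate VASP, also had no enriched peak, and 7 of their 46 tested regions were higher (15.2%). Of these, PRKG1 alone held 28 of the 46 tested and 6 of the 7 higher regions. Among the 9 barbed-end and nucleation factors 5 of 48 regions were higher (10.4%). Of the regions in ACTG1 and profilin (PFN1), 2 of 8 were higher (25%, against 21.1% of all regions), 1 in each gene.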

How the data were processed

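RBFOX2 eCLIP was measured in HEK293T cells in 4 IP libraries with 4 paired inputs. Per the submitters' processing notes, UMI-tools 1.1.1, cutadapt 3.2 and STAR 2.7.7a were used, with the builds hg38 and GRCh38.p13. The peak caller, the test, filters and the scaling between IP and input are not given in the sources used here. The authors deposited 1 list without header per IP. Its deposited values were read as −log10 p (never negative, at most 400) and as the log2 fold of IP over input (both signs).

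BED starts were made 1-based. Gene spans came from a RefSeq table (GRCh38.p14) and strands from the RefSeq start windows, which cover 27305 genes, 79.0% of the protein-coding ones. Regions were peaks merged by an overlap of at least 1 nt. The mean log2 fold of 49493 regions was tested against 0 with limma 3.58.1 in R 4.3.3 (intercept only, eBayes, two-sided, Benjamini-Hochberg over all regions, threshold 0.05). The fit was also run on simulated normal folds with 1 common spread. The real folds take few levels, so that run does not show how the fit behaves on them. Shares were compared with exact sign-flip permutations over 4 replicates. Python 3.11.15, numpy 2.4.6 and pandas 2.3.3 were used.

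Members, lists and tests were chosen with earlier results of these data known. Named regions are those enriched in at least 2 replicates, the 5 highest and 3 lowest tested regions per gene, and for the partner list the genes with a region enriched in all 4 replicates. The shares by fold, overlap and position and the EVL starts were chosen after seeing the data. GCATG was searched only in the start windows and the hairpin, since no genome was used here. Alternatives were other limits on fold and p, other values per region, other limma settings, and leaving out each replicate.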

Additional observations from a re-analysis of the deposited data

Results flagged for a closer look

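In 36 sets of 4 replicate values, 4 had 1 replicate far from the other 3, where chance gives about 1 in 20 sets of continuous values. Counts and folds here take few levels, so that 3 equal values make any other value stand apart, and that rate does not hold for them. ENAH had 3 enriched peaks in replicate 4 against 1 in each of the others. The ENAH region from 225633779 to 225633950 had a log2 fold of −1.58 in replicate 2, while the other replicates were within 0.001 of 0. The highest log2 fold of EVL was 3.32 in replicate 2, against 2.50 to 2.58 in the others, and it belongs to the EVL region that was higher in IP. The EVL region from 100138604 to 100138699 had a log2 fold of 1.41 in replicate 4, against 0.59 to 0.68. None of these patterns was traced to a cause.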

How the results depend on the processing

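No paired analysis was possible because the pairing of IP with input is already inside every value, and the tests use it, so no second group remains to pair. When the fold limit was lowered to 1 on the log2 scale ENAH had 3 enriched peaks per list against 1.5, and 2 regions enriched in all 4 replicates against 1. A −log10 p of at least 5 gave 0.750 and 0, and a fold limit of 4 without one on p gave 0.750 and 0, with 1.25 against 3.25 for the partner genes. Counting any called peak gave 3 ENAH regions. The limma count of 8 for ENAH was 5 with the mean of the peaks in a region, 3 against a log2 fold of 1, 5 among the 5 regions where some replicate reached a −log10 p of 3 (no independent check, since that filter already asks for a fold above 0), and 0 to 3 over the fits that left out 1 replicate (10 to 16 at an unadjusted p under 0.05). The count of 1 for EVL was 2 with a trended and robust fit, 0 against a log2 fold of 1, 0 among regions that reached a −log10 p of 3 (none left to test), and 0 over the fits that left out 1 replicate (4 to 6 at an unadjusted p under 0.05). For these other fits the share of all regions called is not given here. Changes over the whole table were thus not told apart from changes in ENAH or EVL. The VASP share of folds below −0.5, 0.535 percentage points above other genic peaks, ranged from −2.49 (without replicate 2) to 3.45 (without replicate 4) and was −0.651 without replicate 3. The other counts for the 3 genes and the partner genes stayed within 1.5 times under the alternatives run, and of the differences between shares none other changed sign. Searches for GCATG in the peaks, with a wider window or TGCATG, were not run because no genome was used here. Without read counts the precision of a single fold is unknown, and ENAH peaks lie near the limit on p.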
